A study of Mus musculus with 8 samples.

Results

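The nuclear genes for the subunits of respiratory complexes I and II were followed in mouse bone marrow hematopoietic stem cells after granulocyte colony-stimulating factor (G-CSF). The list of 39 genes names 35 subunits of complex I (Nduf genes) and the 4 subunits of complex II (Sdha, Sdhb, Sdhc and Sdhd). A gene was taken up when a probe set of the array carried its symbol and no other, and where a gene had several such probe sets the one with the highest mean over the arrays was kept. This gave 38 members among 19938 measured genes. Ndufb4 had no probe set under its symbol alone and was not analysed here.

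The cells were KSL SLAM cells, sorted from bone marrow as negative for lineage markers, CD48 and CD41 and positive for c-Kit, Sca-1 and CD150. One group of mice received G-CSF under the skin at 125 mcg per kg 2 times a day and the other received phosphate-buffered saline (PBS), and cells were taken at 36 h. Each group had 4 arrays, each from an independent pool of 5 to 10 mice. The labels name no mouse strain, sex or age. Over all genes PBS replicate 3 was unlike the other 7 arrays, with an interquartile range of log2 values of 1.68 against 2.42 to 2.80 and correlations of at most 0.903, and values that it moves by over 1.5 times are given with and without it.

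Complex I, the NADH dehydrogenase of the inner mitochondrial membrane, takes electrons from NADH and passes them through flavin and iron-sulphur clusters to ubiquinone while pumping protons. Its L shape has a matrix arm, where the electrons travel, and a membrane arm, where the protons move. A catalytic core shared with bacteria is surrounded by accessory subunits that are needed for assembly and stability. Complex II, the succinate dehydrogenase, is both an enzyme of the tricarboxylic acid (TCA) cycle and a second entry for electrons to ubiquinone, and it pumps no protons. Quiescent hematopoietic stem cells are known for relying largely on glycolysis and for raising mitochondrial respiration when they are activated.

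No member passed the test across all genes. Of the 38 members, 0 were higher and 0 were lower after G-CSF at a limma adjusted p under 0.05, the lowest adjusted p being 0.275, where 0.0953% of all genes were called higher and 0% lower. At an unadjusted p under 0.05, 12 members were higher and 0 lower, against 6.07% of all genes higher and 2.94% lower. In 12 members the 4 G-CSF values lay above all 4 PBS values, which held for 3.37% of all genes, and in 0 members they lay below all of them, against 2.78%. The 2 sets shared 11 genes. Of the others, Ndufs8 had the p but overlapping groups, and Sdhc had groups that did not overlap but an unadjusted p above 0.05. All 38 members belong to the 9969 genes with the higher mean intensity over the arrays (the brighter genes), of which 11.0% were higher at an unadjusted p under 0.05 and 6.18% had G-CSF values above all PBS values. After renewed quantile normalization 7 of the 12 members without overlap remained so (Ndufa9, Ndufa10, Ndufb5, Ndufb7, Ndufb9, Ndufb11 and Sdhc).

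The median log2 fold change (G-CSF minus PBS) of the 38 members was 0.36, against -0.07 for all genes and 0.13 for the brighter genes. It was above 0 in 33 members, compared with 41.7% of all genes and 66.5% of the brighter genes, and in 29 members after quantile normalization, when Ndufb3, Ndufb6, Ndufs1 and Ndufv2 were below 0. The 5 members below 0 on the deposited scale were Ndufa6, Ndufa5, Ndufa12, Ndufa8 and Sdha. After quantile normalization the median of the members was 0.26, against -0.01 for all genes. Over all genes the interquartile range was widest in G-CSF replicates 2 and 4, at 2.77 and 2.80. Its part in the values of the members was not tested. The median of the members was 0.24 without PBS replicate 2, 0.25 without G-CSF replicate 4 and 0.43 without PBS replicate 3. Without PBS replicate 3 the median of all genes was -0.02. In these sorted pools, a change in the share of a cell type and a change in RNA per cell cannot be told apart.

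**Figure D1:**
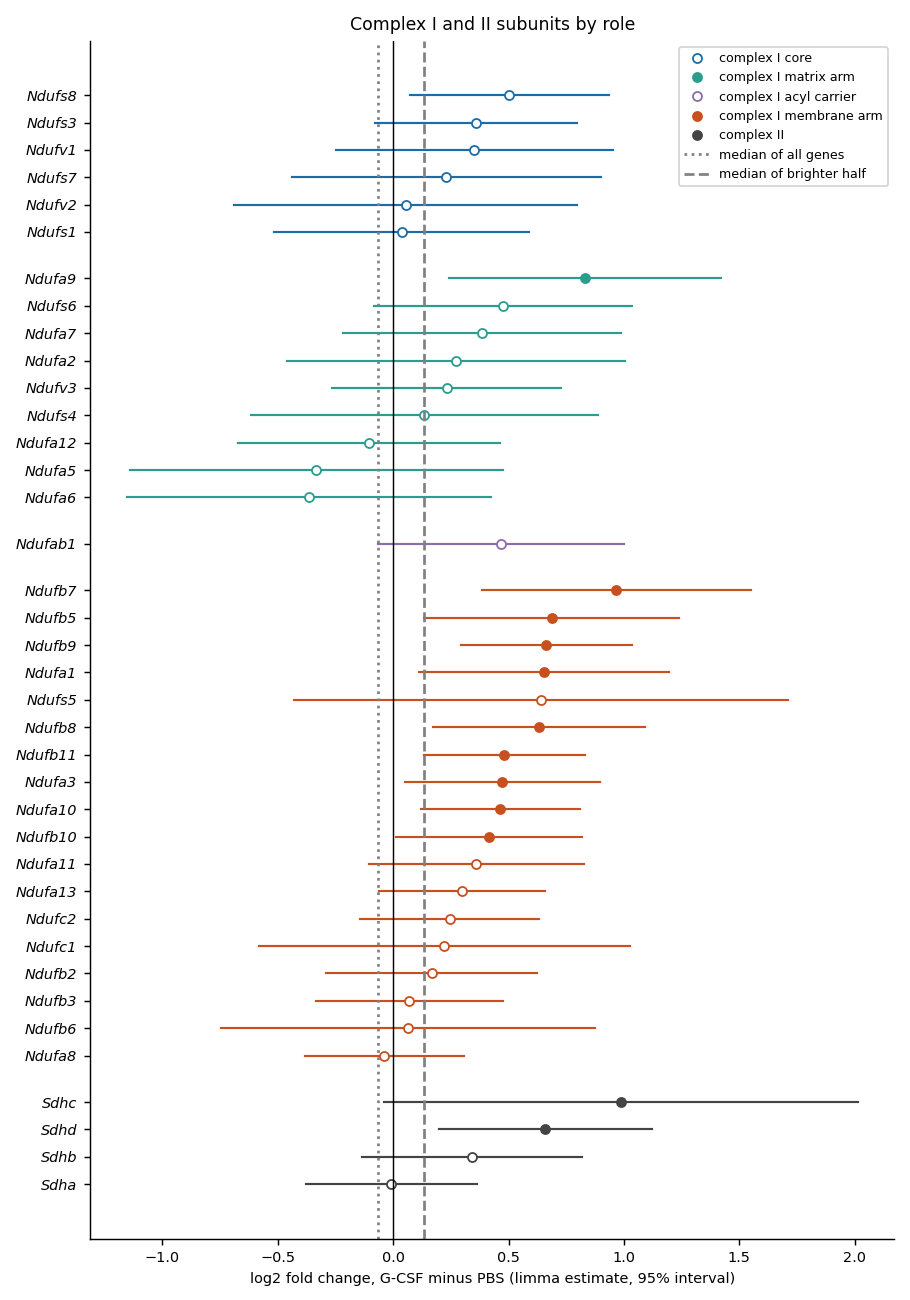
Log2 fold change (G-CSF minus PBS) of the 38 members with the 95% interval of the limma fit, in rows by role. Filled points mark the 12 genes whose 4 G-CSF values lie above all 4 PBS values, of which 9 are accessory subunits of the membrane arm. The dotted and dashed lines show the medians of all genes (-0.07) and of the brighter genes (0.13).

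The accessory subunits of the membrane arm, 18 of the 38 members, held most of the members whose groups were separated. Of these 18, 17 had a log2 fold change above 0, and their median was 0.44. At an unadjusted p under 0.05, 9 were higher, against 6.07% of all genes and 11.0% of the brighter genes. The same number had no overlap between groups, against 3.37% and 6.18%. After quantile normalization only Ndufa10, Ndufb5, Ndufb7, Ndufb9 and Ndufb11 of them stayed apart. Whether the arms differ was not tested. Ndufb9, a small membrane-arm subunit of the LYR-motif family that binds an acyl carrier protein, had the lowest p of all members. Its log2 intensity was 8.87, 8.63, 8.90 and 8.70 in PBS replicates 1 to 4 and 9.26, 9.50, 9.30 and 9.69 in G-CSF replicates 1 to 4. The groups stood clearly apart, and the spread within each was small (SD 0.13 and 0.20, n = 4). The difference was 0.66 ± 0.17 SE, or 1.58-fold (limma adjusted p = 0.275).

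Ndufb7, which lies on the intermembrane-space face of the membrane arm, had the largest difference in complex I, 0.97 ± 0.26 SE or 1.96-fold (limma adjusted p = 0.305). It read 9.09, 8.57, 7.79 and 8.46 in PBS replicates 1 to 4, with the lowest value in replicate 3, and 9.11, 9.57, 9.35 and 9.74 after G-CSF. The groups touched: G-CSF replicate 1 exceeded PBS replicate 1 by 0.02. Without PBS replicate 3 the difference was 0.74.

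Ndufb11, encoded on the X chromosome, read 9.67, 9.62, 9.47 and 9.83 after PBS and 10.12, 10.01, 10.13 and 10.25 after G-CSF. Its difference was modest, 0.48 ± 0.16 SE, and the lowest G-CSF array lay above the highest PBS array. Ndufa10, which has the fold of a nucleoside kinase, likewise had a small and even shift of 0.46 ± 0.16 SE. Its PBS values were 9.08, 8.87, 8.85 and 8.81 and its G-CSF values 9.28, 9.42, 9.27 and 9.50. These 2 genes and Ndufb9 were the members without overlap whose SD was 0.20 or less in both groups.

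Ndufb8 read 8.08, 7.66, 7.41 and 7.81 after PBS and 8.22, 8.39, 8.10 and 8.79 after G-CSF, a difference of 0.63 ± 0.21 SE. Here PBS replicate 1 and G-CSF replicate 3 were nearly level. Ndufb5 read 8.04, 6.83, 7.82 and 7.76 after PBS and 8.18, 8.29, 8.20 and 8.53 after G-CSF, a difference of 0.69 ± 0.25 SE. A large part of it came from PBS replicate 2, without which it was 0.43. The further membrane-arm members without overlap were Ndufa1, with 0.65, Ndufa3, with 0.47, and Ndufb10, with 0.42.

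The other 9 membrane-arm members had overlapping groups. Ndufs5, on the intermembrane-space face, had 0.64 but an SD of 1.12 among the PBS arrays, and 0.20 without PBS replicate 2. Ndufa11 and Ndufa13, the latter also called GRIM-19, had 0.36 and 0.30. Ndufc2, Ndufc1, Ndufb2, Ndufb3 and Ndufb6 ran from 0.24 down to 0.06. Without PBS replicate 3, Ndufc1 was 0.47 in place of 0.22, Ndufb6 0.47 in place of 0.06 and Ndufb2 0.11 in place of 0.17. Ndufa8, another subunit of the intermembrane-space face, was nearly level, with -0.04 ± 0.16 SE, and -0.06 without PBS replicate 3. Its values were 7.80, 7.87, 7.79 and 8.02 after PBS and 7.99, 7.71, 7.77 and 7.85 after G-CSF, and the 95% interval of the difference was -0.38 to 0.31.

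**Figure D2:**
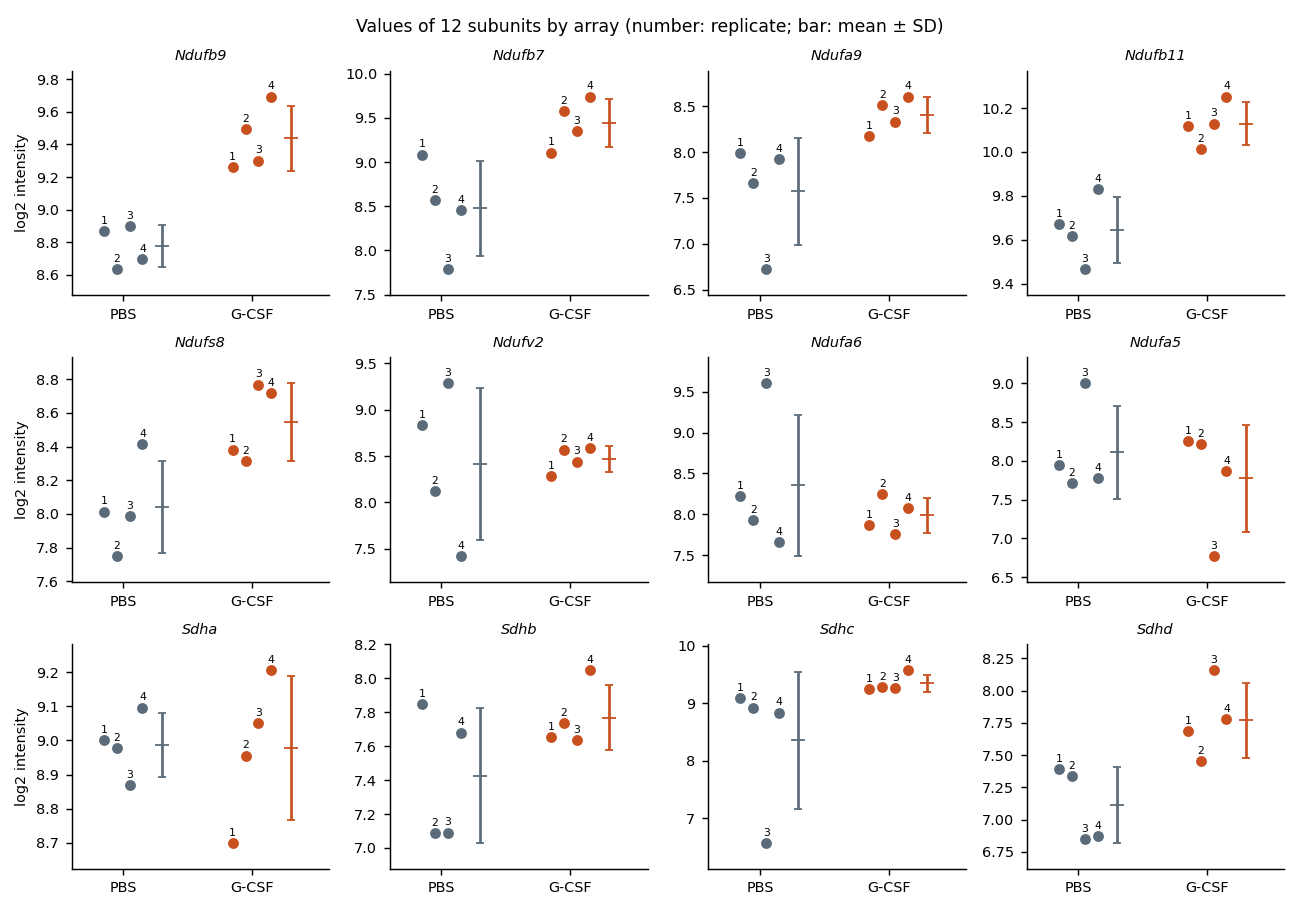
Log2 intensity of 12 subunits on each array, PBS in grey and G-CSF in orange, with the replicate number at each point and the group mean ± SD (n = 4) beside it. Scales differ between panels. Ndufb9, Ndufb7, Ndufa9, Ndufb11, Sdhc and Sdhd do not overlap between groups. PBS replicate 3 is the highest of all arrays for Ndufa6, Ndufa5 and Ndufv2, and the lowest for Ndufb7, Ndufa9, Ndufb11, Sdhc and Sdhd.

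The catalytic core, whose subunits carry the flavin and the iron-sulphur clusters, had 1 of 6 genes higher at an unadjusted p under 0.05. Of all genes 6.07% were higher at that p, and of the brighter genes 11.0%. All 6 core members had a log2 fold change above 0, with a median of 0.29. In 0 of them were the groups apart, against 3.37% of all genes and 6.18% of the brighter genes with G-CSF values above all PBS values. The gene under that p was Ndufs8, a ferredoxin-like subunit with iron-sulphur clusters near ubiquinone, with 0.50 ± 0.20 SE (limma adjusted p = 0.505). It read 8.01, 7.75, 7.99 and 8.41 after PBS and 8.38, 8.31, 8.77 and 8.72 after G-CSF, so PBS replicate 4 lay among the G-CSF arrays.

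Ndufs3, a core subunit without a cluster, had 0.36 ± 0.20 SE. It was 8.61, 8.04, 8.36 and 8.43 after PBS and 8.79, 8.38, 8.64 and 9.07 after G-CSF. Ndufs7 holds the last cluster before ubiquinone and had 0.23 ± 0.30 SE. Its PBS values spread from 7.30 to 8.87 (8.87, 7.86, 7.30 and 7.81) and its G-CSF values, 7.98, 8.63, 7.98 and 8.17, lay within that range. The difference was 0.01 without PBS replicate 3 and 0.53 without PBS replicate 1.

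The subunits at the tip of the matrix arm, where NADH is oxidised, had overlapping groups and wide intervals. Ndufv1, which binds the flavin and NADH, read 7.46, 7.51, 8.18 and 7.16 after PBS and 7.63, 8.50, 7.49 and 8.10 after G-CSF (0.35 ± 0.27 SE). Ndufv2, its iron-sulphur partner, read 8.83, 8.12, 9.28 and 7.42 after PBS and 8.28, 8.57, 8.44 and 8.59 after G-CSF (0.05 ± 0.34 SE). The G-CSF values of Ndufv2 all lay inside the PBS range, and its 95% interval was -0.69 to 0.80. The differences were 0.55 for Ndufv1 and 0.34 for Ndufv2 when PBS replicate 3 was left out. Ndufs1, the largest subunit of the complex, read 7.82, 7.84, 7.46 and 6.75 after PBS and 7.51, 7.27, 7.43 and 7.80 after G-CSF (0.04 ± 0.25 SE, 95% interval -0.52 to 0.59). For Ndufv2 and Ndufs1 the sign turned when PBS replicate 4 was left out, to -0.28 and -0.20.

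Among the 9 accessory subunits of the matrix arm the median was 0.23, and 6 lay above 0. Only 1 of the 9 had groups that did not overlap, against 3.37% of all genes and 6.18% of the brighter genes. The same gene alone was higher at an unadjusted p under 0.05, against 6.07% and 11.0%. It was Ndufa9, a subunit at the junction of both arms with a nucleotide-binding fold. Ndufa9 read 7.99, 7.66, 6.72 and 7.92 after PBS and 8.17, 8.51, 8.33 and 8.60 after G-CSF, a difference of 0.83 ± 0.27 SE (limma adjusted p = 0.397). PBS replicate 3 was far below the other arrays, and without it the difference was 0.55.

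The lowest fold changes of all members were in this arm too, and each rested on particular arrays. Ndufa6, an LYR-motif subunit that holds an acyl carrier protein on the matrix arm, had -0.37 ± 0.36 SE. It read 8.22, 7.93, 9.60 and 7.66 after PBS and 7.87, 8.24, 7.76 and 8.08 after G-CSF, and without PBS replicate 3 the difference was 0.05. Ndufa5 had -0.33 ± 0.37 SE, from 7.94, 7.72, 8.999 and 7.78 after PBS and 8.25, 8.21, 6.77 and 7.87 after G-CSF. PBS replicate 3 was the highest and G-CSF replicate 3 the lowest of its 8 values, and without the former the difference was -0.04. Ndufa12, a relative of the assembly factor Ndufaf2, had -0.10 ± 0.26 SE, from 9.48, 10.17, 9.62 and 8.93 after PBS and 9.69, 9.42, 9.05 and 9.62 after G-CSF. Its sign turned without PBS replicate 2, with 0.10.

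The remaining matrix-arm members overlapped between groups, with Ndufs6, a zinc-binding subunit, at 0.48, Ndufa7 at 0.38, Ndufa2 at 0.27, Ndufv3 at 0.23 and Ndufs4 at 0.14. PBS replicate 3 weighed on all 5: without it Ndufs6 was 0.31, Ndufa7 0.12, Ndufa2 0.47, Ndufv3 0.46 and Ndufs4 0.45. Ndufab1, the mitochondrial acyl carrier protein that sits in both arms, had 0.47 ± 0.24 SE, and its groups overlapped as well.

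The 4 subunits of complex II had unlike values. Sdha, the flavoprotein that oxidises succinate, was nearly level between groups, whereas the membrane anchor Sdhd, which with Sdhc holds the heme and the ubiquinone site, had separated groups. Sdha read 9.0002, 8.98, 8.87 and 9.10 after PBS and 8.70, 8.96, 9.05 and 9.21 after G-CSF, a difference of -0.01 ± 0.17 SE with a 95% interval of -0.38 to 0.36. Without PBS replicate 3 the difference of Sdha was -0.05. Sdhd read 7.39, 7.34, 6.85 and 6.87 after PBS and 7.69, 7.46, 8.16 and 7.78 after G-CSF, a difference of 0.66 ± 0.21 SE or 1.58-fold (limma adjusted p = 0.388). The lowest G-CSF value of Sdhd exceeded its highest PBS value by 0.06, and after quantile normalization its groups overlapped. Whether the subunits differ from each other in their response was not tested.

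Sdhc had the largest difference of all members, 0.99 ± 0.47 SE or 1.98-fold, and it depended on 1 array. Its PBS values were 9.10, 8.92, 6.57 and 8.84 and its G-CSF values 9.25, 9.29, 9.27 and 9.57. The groups did not overlap with or without PBS replicate 3, but without it the difference was 0.39. Sdhb, the iron-sulphur subunit that passes electrons from Sdha to the anchors, had 0.34 ± 0.22 SE. Its values were 7.85, 7.09, 7.09 and 7.68 after PBS and 7.65, 7.74, 7.63 and 8.05 after G-CSF, and PBS replicates 1 and 4 lay within the G-CSF range.

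Promoters of respiratory genes are known to hold sites for the factors NRF1, the ETS factor GABP and YY1, so the RefSeq promoter windows (GRCm38.p6, from 250 bases before to 50 after the start site) of 34 measured members were searched on both strands. An NRF1 match was GCGCA and GCGC with any base between them, or its reverse complement, an ETS match CCGGAAG or its reverse complement CTTCCGG, and a YY1 match AAGATGGCG or its reverse complement CGCCATCTT. None of these motifs contains another. The NRF1 letters stood in 8 of the 34 members, against 5.19% of all 27025 genes with a window and 12.2% of the 8076 brighter ones. The ETS letters stood in 6 members, against 9.93% and 21.1%, and the YY1 letters in 5, against 1.64% and 3.93%. Of the 10 members without overlap, 1 had NRF1, 2 had ETS and 1 had YY1 letters, and of the other 24 members 7, 4 and 4 did.

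The 120 bases before the start site of 4 members are given to set a gene with separated groups beside a nearly level one. The 4 were picked after their values were seen and do not stand for the other members. Sdhd and Ndufb7 are the 2 of the 10 members without overlap that had ETS letters. Sdhd (chr9:50603850-50603969, minus strand) and Sdha (chr13:74350241-74350360, minus strand) belong to complex II, and Ndufb7 (chr8:83566638-83566757, plus strand) and Ndufa8 (chr2:36049339-36049458, minus strand) to the membrane arm of complex I. Each is written 5′ to 3′ on the strand of the gene, with NRF1 and ETS letters in capitals.
Sdhd: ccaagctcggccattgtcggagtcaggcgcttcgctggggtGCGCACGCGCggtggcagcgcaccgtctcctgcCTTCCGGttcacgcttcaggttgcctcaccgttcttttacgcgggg
Sdha: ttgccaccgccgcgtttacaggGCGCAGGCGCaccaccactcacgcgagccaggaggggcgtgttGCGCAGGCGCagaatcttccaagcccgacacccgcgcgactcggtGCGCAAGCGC
Ndufb7: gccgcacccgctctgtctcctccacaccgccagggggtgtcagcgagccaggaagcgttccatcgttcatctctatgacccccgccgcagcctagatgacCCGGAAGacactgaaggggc
Ndufa8: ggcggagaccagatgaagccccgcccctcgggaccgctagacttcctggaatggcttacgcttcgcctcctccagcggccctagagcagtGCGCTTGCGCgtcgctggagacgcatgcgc

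Sdha, with a log2 fold change of -0.01, held NRF1 letters at 3 places, beginning at -98, -55 and -10 from the start site, and no ETS letters. Sdhd, with 0.66, held NRF1 letters at -79 and ETS letters at -46. Ndufb7, with 0.97, held ETS letters at -20, and Ndufa8, with -0.04, NRF1 letters at -30. A match is a description of these windows only.

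The genes that build or feed the complexes showed no call either. Of 18 measured assembly factors of complex I, 0 passed over all genes, and the median log2 fold change was 0.20. At an unadjusted p under 0.05, 2 of them were higher, against 6.07% of all genes and 11.0% of the brighter genes. Ndufaf3, an early assembly factor, had 0.91 ± 0.28 SE (limma adjusted p = 0.385), and Ndufaf1, which helps assemble the membrane arm, 0.56 ± 0.25 SE. The 4 assembly factors of complex II had a median of 0.16, and Sdhaf2, which helps attach the flavin to Sdha, had 0.30 ± 0.18 SE. The TCA cycle, which supplies NADH and succinate, had a median of 0.49 over 13 genes, with 3 higher at an unadjusted p under 0.05 and 0 called. Its mean was 7.57 in PBS replicate 3 against 8.22 to 8.44 on the other PBS arrays, and without that array the median was 0.21. The 3 genes included citrate synthase (Cs), with 0.60 ± 0.23 SE, and Idh3g, a subunit of isocitrate dehydrogenase, with 0.49 ± 0.20 SE. With all arrays, in none of the genes of these 3 lists were the groups apart. Without PBS replicate 3, 2 of the 13 TCA genes had G-CSF values above all PBS values, against 4.76% of all genes. Without PBS replicate 3 the median was 0.26 for the assembly factors of complex II, and Ndufaf1 had 0.37 ± 0.21 SE.

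Other electron donors to ubiquinone and genes of its synthesis had a median of 0.20 over 15 genes, with 0 called and Etfb, a subunit of the electron transfer flavoprotein, at 0.94 ± 0.42 SE. PBS replicate 3 was lowest for Etfb, at 7.06 against 8.45 to 9.38 on the other PBS arrays, and without it the difference was 0.46 and the median of the list 0.10. Iron-sulphur cluster assembly, on which both complexes depend, had a median of 0.16 over 14 genes, -0.04 without PBS replicate 3, and 0 called. Its scaffold gene Iscu had 0.82 ± 0.27 SE, while Isca2, a later-acting assembly factor, had -0.54 ± 0.19 SE with all 4 G-CSF values below the PBS values (limma adjusted p = 0.454). Regulators of mitochondrial gene expression had a median of 0.18 over 16 genes, 0.04 without PBS replicate 3, with 0 called and 0 at an unadjusted p under 0.05. At that p 6.07% of all genes were higher and 2.94% lower. Gabpa, a subunit of GABP, had 0.70 ± 0.34 SE, Nrf1 0.14 ± 0.24 SE and the nuclear receptor Esrra -0.02 ± 0.16 SE. Gabpa was 6.54 in PBS replicate 3 against 7.61 to 8.29 on the other PBS arrays, and without that array Gabpa had 0.32, Nrf1 0.04 and Esrra 0.03. These values for the lists around the complexes, without PBS replicate 3, were added after the data were seen. The coactivators Ppargc1a and Ppargc1b had -0.07 ± 0.30 SE and -0.27 ± 0.16 SE (limma adjusted p = 0.583 for Ppargc1b). For Ppargc1b, as for Isca2, all G-CSF values lay below the PBS values, which held for 2.78% of all genes. Both gaps were narrow. The highest G-CSF value and the lowest PBS value were 5.731 and 5.740 for Ppargc1b and 7.31 and 7.33 for Isca2. The complex I subunits that mitochondrial DNA encodes were not analysed here.

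The mean of the 34 complex I subunits on each array was 8.49, 8.05, 8.41 and 8.21 in PBS replicates 1 to 4 and 8.50, 8.73, 8.42 and 8.80 in G-CSF replicates 1 to 4. The groups overlapped, since PBS replicate 1 stood above G-CSF replicate 3. G-CSF replicate 4 was the highest of the 8 arrays for 18 of the 38 members and PBS replicate 2 the lowest for 15. The mean of the 4 complex II subunits was 8.33, 8.08, 7.34 and 8.12 after PBS and 8.32, 8.36, 8.53 and 8.65 after G-CSF, again overlapping at PBS replicate 1.

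**Figure D3:**
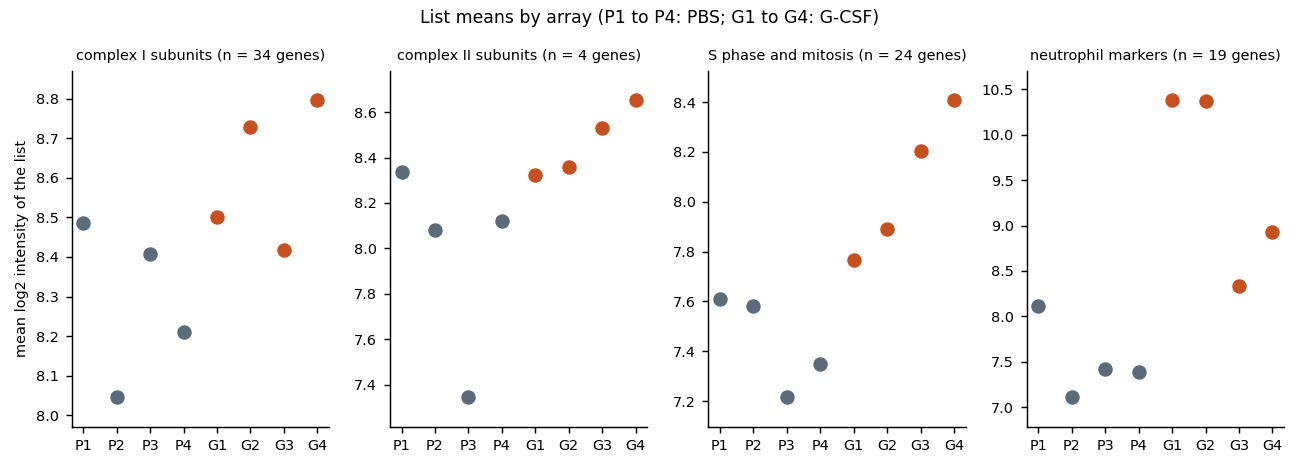
Mean log2 intensity per array of 4 gene lists, with PBS arrays (P1 to P4) in grey and G-CSF arrays (G1 to G4) in orange. The complex I and II means overlap between groups at PBS replicate 1, whereas the S phase and neutrophil means do not overlap.

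Markers of dividing cells, of neutrophils and of granulocyte-monocyte progenitors were higher on the G-CSF arrays by their list means, which did not overlap. For S phase and mitosis, 24 of 24 genes had a log2 fold change above 0 and 0 passed, and their mean ran from 7.22 to 7.61 after PBS and from 7.76 to 8.41 after G-CSF, highest in G-CSF replicate 4. Mki67, a marker of dividing cells, had 0.71 ± 0.18 SE. Of 19 neutrophil markers, all had values above 0 and 0 passed, and their mean ran from 7.11 to 8.11 after PBS and from 8.34 to 10.38 after G-CSF, highest in G-CSF replicates 1 and 2. Their S100a8 was bright in both groups, with 12.02 ± 0.88 after PBS and 12.95 ± 0.40 after G-CSF (SD, n = 4). The granulocyte-monocyte progenitor list, with 1 of 10 genes called (Csf2rb), ran from 6.14 to 7.22 and from 7.31 to 7.79, and its Mpo had 1.21 ± 0.54 SE. With PBS replicate 3 left out, 1 neutrophil gene and 2 of this list were called. The part of these cells in the values of the subunits was not tested.

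The means of the lists for other cell types overlapped between groups. Monocyte and macrophage genes ran from 6.21 to 7.30 after PBS and from 6.45 to 7.37 after G-CSF. Erythroid genes ran from 6.65 to 7.68 and from 6.39 to 7.20, and megakaryocyte genes from 6.63 to 7.33 and from 6.21 to 6.77. B cell genes ran from 5.47 to 5.93 and from 5.14 to 5.63, and T and NK cell genes from 4.92 to 5.64 and from 5.21 to 5.62. In these 5 lists 0 genes passed over all genes. Monocyte and macrophage genes had a median log2 fold change of 0.28, and 0.09 without PBS replicate 3.

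Ribosomal protein genes, taken as a sign of RNA quality, had means that did not overlap between groups, 11.59 to 11.95 after PBS and 11.96 to 12.03 after G-CSF. They were lowest in PBS replicate 3, and their part in the values of the subunits was not tested. Kit, the receptor used in the sort, was bright on all arrays, with 10.45 to 10.94 after PBS and 10.24 to 10.49 after G-CSF (-0.35 ± 0.17 SE, limma adjusted p = 0.552). Without PBS replicate 3 its G-CSF values lay below all PBS values, with -0.44 ± 0.14 SE (limma adjusted p = 0.389). Slamf1, which encodes CD150, ran from 5.94 to 7.24 after PBS and from 6.05 to 7.16 after G-CSF. Cd34, which dormant stem cells of the mouse carry little of, had 0.87 ± 0.35 SE (limma adjusted p = 0.517), and 0.60 without PBS replicate 3. Genes of the markers sorted against, named after their values were seen, were not dim: Cd48 ran from 6.66 to 8.95, highest in G-CSF replicate 4, and Itga2b, which encodes CD41, from 7.06 to 7.74, where the median gene was at 5.74 to 5.89.

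PBS replicate 3 was not shifted 1 way among the subunits. It lay over 0.5 above the mean of the other 3 PBS arrays in 9 members and over 0.5 below it in 7. The highest were Ndufa6 (1.67), Ndufb6 (1.64) and Ndufs4 (1.27), and the lowest Sdhc (-2.38), Ndufa9 (-1.13) and Ndufa7 (-1.05). Subunits of the same arm thus lay at both ends. Without this array 13 members had no overlap between groups, the 12 named above and Ndufv3, against 4.76% of all genes with the same arrays. There 15 members had an unadjusted p under 0.05 with higher values, against 5.64% of all genes, while 0 passed over all genes (lowest adjusted p = 0.182).

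**Figure D4:**
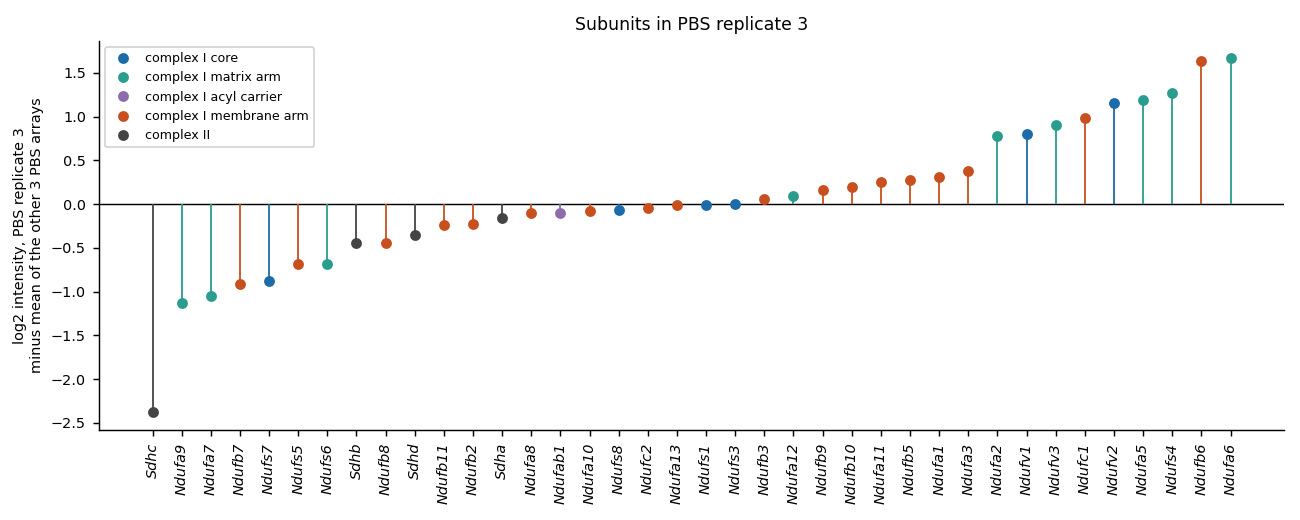
Log2 intensity in PBS replicate 3 minus the mean of the other 3 PBS arrays for the 38 members, in order and coloured by role. Sdhc lies lowest at -2.38 and Ndufa6 highest at 1.67, and 22 members lie within 0.5 of the other arrays.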

How the data were processed

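Expression was measured on MoGene 1.0 ST arrays from RNA amplified with NuGen Ovation. The authors deposited linear intensities, 1 for each probe set on each array, between 2.15 and 16163, and these were taken to log2 here. Per the submitters' processing notes RMA was used; its options are not given. Scanner files were not used here. Of 35556 probe sets, 21789 carried 1 gene symbol, 1621 several and 12146 none. Only those with 1 symbol were used, which gave 19938 genes, and all 38 members were found by gene ID in RefSeq with the same symbol.

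G-CSF was compared with PBS with lmFit and eBayes of limma 3.58.1 (R 4.3.3), 2-sided, with p-values adjusted over all genes by Benjamini-Hochberg and a threshold of 0.05. Dim genes were kept. The number of arrays limits the precision. The script was tested on simulated data. Alternatives covered scaling, probe set choice, array weights, the replicate number as a block and each array left out. Members and lists were chosen with earlier results of these data known. Values per array are given for the 8 members with the lowest p, the 4 with the lowest fold change, the core subunits and complex II, and of other lists for up to 2 genes with the lowest p and a fixed few always.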

Additional observations from a re-analysis of the deposited data

Results flagged for a closer look

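In 3 of 76 groups of 4 values (38 members, 2 groups each), 1 array lay far from the others by Dixon's ratio of gap to range. Chance alone would give about 5% of groups. Sdhc in PBS replicate 3 was 6.57, against 8.84 to 9.10 on the other PBS arrays. Sdhc in G-CSF replicate 4 was 9.57, against 9.25 to 9.29. Ndufb10 in PBS replicate 4 was 8.21, against 8.74 to 8.76.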

How the results depend on the processing

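Under 18 alternatives 0 members passed, with a lowest adjusted p of 0.104 (array weights). The members' median log2 fold change ran from 0.24 to 0.47 when 1 array was left out and from 0.26 to 0.39 otherwise. Members at an unadjusted p under 0.05 ran from 8 to 16 and from 8 to 14. For these settings the share of all genes at that p is given only without PBS replicate 3 (5.64% higher). The other counts have no such share beside them and cannot be set against all genes. Members without overlap ran from 12 to 15 and from 7 to 12, the 7 with quantile normalization. With 1 array left out, 4.06% to 6.22% of all genes had G-CSF values above all PBS values, the 6.22% where 15 members did. With quantile normalization 3.31% of all genes did, against 3.37% on the deposited scale. The count over all genes was 19, but 40 with array weights, 10 with quantile normalization, 0 with all probe sets entered, 52 at a threshold of 0.1, and 3 to 31 with 1 array left out (10, 3, 31 and 7 without G-CSF replicates 1 to 4). With the replicate number as a block 23 genes and 0 members were called and 12 members had an unadjusted p under 0.05. No clear pairing by equal number was seen, with correlations of deviations of -0.03, 0.06, 0.06 and 0.14, and not every array correlated best with its own number. With 4 arrays in each group these values cannot exclude a pairing.

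The sign held throughout in 25 members and turned in 13 that were near 0 or had wide spread, and the cause was not tested. With quantile normalization Ndufb3 was -0.0363, Ndufb6 -0.0361, Ndufs1 -0.0727 and Ndufv2 -0.0122. Where PBS replicate 3 was also left out, Ndufa6 was 0.0181 and Ndufs7 -0.0063. Ndufc1 was -0.0757 as the mean of its probe sets. With 1 array left out, Ndufa2 ran from -0.0346 to 0.49, Ndufa5 from -0.49 to 0.0013, Ndufa6 from -0.60 to 0.0501, Ndufa8 from -0.0902 to 0.0119, Ndufa12 from -0.31 to 0.10, Ndufb3 from -0.0520 to 0.17, Ndufb6 from -0.15 to 0.47, Ndufc1 from -0.20 to 0.47, Ndufs1 from -0.20 to 0.16, Ndufs4 from -0.13 to 0.45, Ndufv2 from -0.28 to 0.34 and Sdha from -0.0837 to 0.0851.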

Other observations

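The spread of the subunits was set side by side for the groups, with no test. The SD among the 4 PBS arrays exceeded that among the 4 G-CSF arrays in 27 of 38 members, with medians of 0.41 and 0.22, and the medians over all genes were 0.34 and 0.22. Without PBS replicate 3 the PBS spread was still the larger in 25 members, with a median of 0.30. Ndufv3 (SD 0.47 after PBS and 0.05 after G-CSF) and Ndufa3 (0.34 and 0.07), chosen after their values were seen, are examples.

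In 5 members another probe set with the same symbol was measured. Its log2 fold change was 0.67 for Ndufa11, 0.62 for Ndufb11, 0.36 for Ndufab1 and 0.27 for Ndufs3, on the same side of 0 as the probe set used, and -0.37 for Ndufc1, where the probe set used had 0.22.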
